A study of Mus musculus with 2 samples.

Results

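The TNF ligand and receptor superfamilies were read from arrays of long-term haematopoietic stem cells (LT-HSCs). The members are the genes whose symbol in the array annotation starts with Tnfsf or Tnfrsf and a number. The choice leaves out Tnfsf10, Tnfrsf10b and Tnfrsf13c; the symbol rule reads no measured value, but it was set with earlier results of these arrays known. This gave 27 genes, 9 of ligands and 18 of receptors, out of 24203 genes measured. They have 43 transcript rows among the 41886 named rows, and each gene was represented by its brightest row, judged by the mean over the arrays. There were 2 groups with 1 array each. The wild-type group is labelled cia-cGAS WT and the other cia-cGAS knockout, cia-cGAS being a circular RNA named for the DNA sensor cGAS. Both came from C57BL/6 mice aged 8 weeks, with no other allele and no agent in the labels, and the cells were sorted from bone marrow. The sources used here do not give the sort markers, how the deletion was made, or whether animals were pooled. No row names the circular RNA, so the deletion was not checked on these arrays. With 1 array a group no test between groups was possible, and each difference describes these 2 arrays.

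TNF superfamily ligands are mostly membrane proteins that act as trimers, on the cell surface or after they are cut free. Their receptors carry cysteine-rich repeats outside the cell. Some receptors signal through a death domain, others bind TRAF adaptors directly, and a few are soluble or lack a signalling tail and act as decoys. The main outcomes are NF-kB activation, survival, or cell death, and in blood these genes are known for roles in lymphocyte costimulation, B cell survival and inflammatory stress of stem cells.

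Levels are log2 values of RMA intensity, and each difference is knockout minus wild type on that scale. The detection floor of an array is the 95th percentile of its rows for smell, pheromone and taste receptor genes, which were assumed to be mostly silent in these cells. It was 9.11 on the wild-type array and 8.97 on the knockout array. Of the 27 members, 8 were above the floor on both arrays, 0 on a single array and 19 on neither. This count depends on the floor: with the median of all rows as the floor 16 members were detected on at least 1 array and 12 on both, and with the 99th percentile of the receptor rows 6 were. None of the 27 reached a 2-fold difference in either direction as a detected gene. Of the 3 genes left out, 2 did. Tnfsf10, the TRAIL gene, read 7.71, under the floor, and 10.79, which is at least 3.21-fold higher. Tnfrsf13c, a BAFF receptor gene, read 12.44 and 10.08, a difference of -2.37. Tnfrsf10b was below both floors. Over all genes measured, 2.48% passed 2-fold upward in the knockout and 1.82% downward. Among genes above the floor on either array the shares were 5.54% and 4.06%. The 8 detected members differed from -0.26 to 0.51, with a median of 0.05, against -0.02 for all genes above the floor on either array. Across all 27 members the median was -0.01, and across all genes it was -0.04. In sorted cells, fewer cells of a type and less RNA per cell cannot be told apart.

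**Figure D1:**
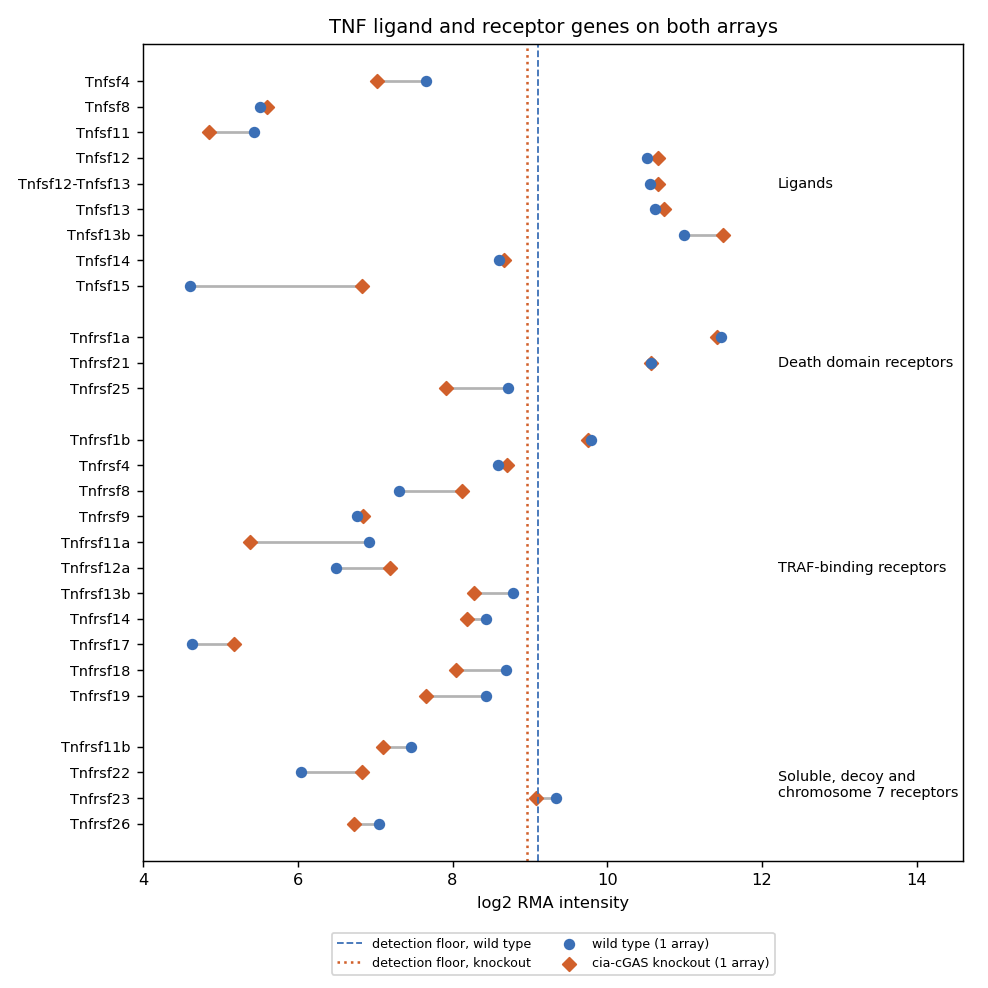
Log2 RMA intensity of the 27 members on the wild-type array (circles) and the knockout array (diamonds), grouped by role, with the detection floor of each array as a vertical line. The 8 members to the right of both lines are Tnfsf12, Tnfsf12-Tnfsf13, Tnfsf13, Tnfsf13b, Tnfrsf1a, Tnfrsf21, Tnfrsf1b and Tnfrsf23; the widest gaps belong to Tnfsf15 and Tnfrsf11a, both below the floors.

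Tnfsf13b encodes BAFF, the B cell activating factor that keeps maturing B cells alive. Its brightest row read 10.99 on the wild-type array and 11.50 on the knockout array, intensities of 2028 and 2892. The knockout value was 1.43-fold higher, a difference of 0.51 (gene ID 24099, transcript on MM9 chromosome 8 from 10006632 to 10035999). This was the largest difference among the 8 detected members. Of the 9239 genes above both floors, 86.6% had a difference below that of Tnfsf13b. Tnfsf13b has 4 rows, and all 4 were higher in the knockout. The other row above both floors read 10.75 and 11.58, a difference of 0.83. Both remaining rows, whose transcripts end earlier, read 7.06 and 8.03, and 6.86 and 7.95. These lie below the floors and differ by 0.97 and 1.09.

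Monocytes, macrophages and neutrophils are known sources of BAFF, and their markers were read on the same arrays. Of 10 monocyte and macrophage markers, 8 were above the floor on the wild-type array and 10 on the knockout array. Upward past 2-fold were 3, namely Ctss, Fcgr1 and Ms4a6c, against 5.54% of all genes above the floor on either array. Fcgr1 and Ms4a6c were those above the floor on the knockout array alone. The 10 markers summed to 28911 and 54989.9, of which Ctss supplied 11097 and 31733. Cd14, Cd68 and C1qb differed by -0.44, -0.29 and -0.42, and the median of the 10 was 0.56. All 10 neutrophil markers were detected on both arrays, with sums of 166579 and 214700.1 and 1 gene past 2-fold upward. The part of these cells in the difference of Tnfsf13b was not tested.

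For scale, where a detected gene has several rows, their differences had a pooled SD of 0.37 over 2892 genes. For genes below both floors the corresponding SD was 0.62. These SDs measure the spread between probe sets on the same pair of arrays, not between animals. Over all genes detected on both arrays the differences had an SD of 0.66. The 0.51 of Tnfsf13b lies above the spread between detected rows and below the spread over genes, and the differences of the other 7 detected members lie below both.

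Promoter sequences of the members were read as a description, with no test, for motifs of interferon and NF-kB signalling. RefSeq promoter windows on GRCm38.p6 were found for 22 of the 27 members, as 26 windows. Each was read over the 250 bases before the annotated start, on both strands. The interferon-stimulated response element was searched as GAAANNGAA, the gamma-activated site as TTCNNNGAA, which reads the same on both strands, and the kappa B site by its general form. The first was found in 6 of the 26 windows, against 7.13% of all 32851 windows. The second was found in 5 windows, against 7.02% of all, and the kappa B form in 3, against 7.25%. In the windows of Tnfrsf8 and Tnfrsf9 several kappa B matches overlap one another and were counted as 1 window each. The 30 bases around each of the 6 matches to GAAANNGAA are printed 5′ to 3′ on the gene's strand, with the match in capitals, since these are the member windows that hold it. In Tnfrsf14, Tnfrsf17, Tnfrsf1b and Tnfrsf4 the match is on the opposite strand, so that the capitals show its reverse complement.
Tnfsf13b, chr8:10006603-10006632, plus strand: atcttacaaaaactGAAAGTGAAatgcgga
Tnfsf8, chr4:63861364-63861393, minus strand: gagcctaaagGAAACAGAAgtggttggtgt
Tnfrsf14, chr4:154928121-154928150, minus strand: tattttttctTTCATTTTCacttttccttg
Tnfrsf17, chr16:11313699-11313728, plus strand: aataggtggtTTCTGTTTCaggaatagttt
Tnfrsf4, chr4:156013460-156013489, plus strand: agaaccaaagTTCAGTTTCcagcactcatg
Tnfrsf1b, chr4:145246871-145246900, minus strand: cctagctcctggcctgagggtTTCGCTTTC

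The match of Tnfsf13b lies 8 to 16 bases before the later of its annotated starts. That of Tnfrsf1b, whose level differed by -0.05, lies 1 to 9 bases before its start. The matches of Tnfsf8, Tnfrsf14, Tnfrsf17 and Tnfrsf4 belong to genes below both floors. A match describes the letters in the window and not binding.

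The remaining detected ligands come from a single locus on chromosome 11. Tnfsf12 encodes TWEAK, which acts on the receptor Fn14 and is known for tissue repair and inflammation. It read 10.51 on the wild-type array and 10.66 on the knockout array, a difference of 0.15 (gene ID 21944, from 69500339 to 69509262). Tnfsf13 encodes APRIL, a ligand that supports plasma cells. Its brightest row read 10.61 and 10.74, a difference of 0.12, and its other row 10.55 and 10.56, a difference of 0.00 (gene ID 69583, from 69496078 to 69499056). Tnfsf12-Tnfsf13 is the read-through gene that joins both. It read 10.55 and 10.66, a difference of 0.11 (gene ID 619441, from 69496078 to 69509499). The read-through gene overlaps both of the others, so these rows can share hybridisation and are not independent readings. On both arrays they lay well above the floor, and their values nearly coincide between the arrays.

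Among the death domain receptors, 2 of 3 were detected. Tnfrsf1a encodes TNFR1, the broadly used receptor for TNF. It read 11.47 on the wild-type array and 11.42 on the knockout array, a difference of -0.05 (gene ID 21937, chromosome 6 from 125299824 to 125312501). Tnfrsf21 encodes death receptor 6. Its brightest row read 10.57 and 10.56, a difference of -0.01 (gene ID 94185, chromosome 17 from 43153554 to 43225286). The other row of Tnfrsf21 was below both floors and differed by 0.57. Averaging both rows turned the sign of Tnfrsf21, as did loess centring of all genes. Tnfrsf25, death receptor 3, which binds the product of Tnfsf15, was below both floors. Its rows differed by -0.80 and 0.26.

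Of the 11 TRAF-binding receptors, Tnfrsf1b alone was detected. It encodes TNFR2, the second TNF receptor, found mainly on blood and endothelial cells. It read 9.79 on the wild-type array and 9.75 on the knockout array, a difference of -0.05 (gene ID 21938, chromosome 4 from 144833406 to 144836774). This is its only row, it is placed on a short stretch, and whether it covers the full transcript was not checked. The rows read for both TNF receptor genes thus differed by -0.05 between the arrays. The ligand gene Tnf, which the symbol rule does not take in, was below both floors, at 5.66 and 8.82, so no fold is given.

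The fourth role group holds soluble or decoy receptors and the mouse gene cluster on chromosome 7. Tnfrsf23, a decoy receptor for TRAIL, was detected close to the floors. It read 9.34 on the wild-type array and 9.08 on the knockout array, a difference of -0.26 (gene ID 79201, from 150851711 to 150871777). Its other row, below both floors, differed by 0.46, and averaging both rows turned the sign. Its neighbours Tnfrsf22 and Tnfrsf26 were below both floors, as was Tnfrsf11b, which encodes osteoprotegerin, the soluble decoy for RANK ligand. The genes of this cluster are similar to each other, so single members are uncertain.

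**Figure D2:**
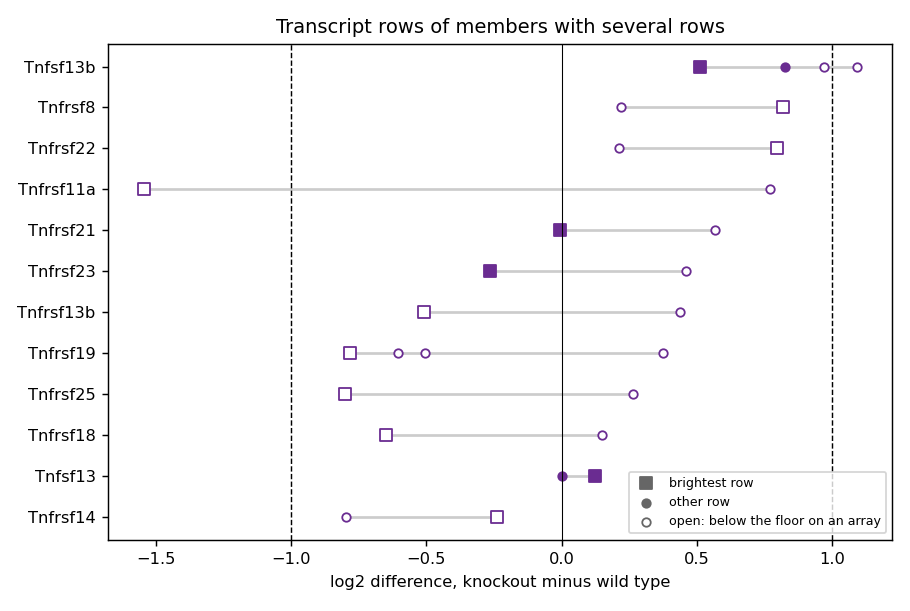
Knockout minus wild type in log2 units for every transcript row of the 12 members with several rows; squares are the brightest row, open symbols lie below the floor on at least 1 array, and dashed lines mark 2-fold. All 4 rows of Tnfsf13b lie to the right of 0, whereas the rows of 7 members, among them Tnfrsf11a and Tnfrsf19, lie on both sides.

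The 19 undetected members are the ligand genes Tnfsf4, Tnfsf8, Tnfsf11, Tnfsf14 and Tnfsf15, the receptor genes Tnfrsf4, Tnfrsf8, Tnfrsf9, Tnfrsf11a, Tnfrsf12a, Tnfrsf13b, Tnfrsf14, Tnfrsf17, Tnfrsf18, Tnfrsf19 and Tnfrsf25, and Tnfrsf11b, Tnfrsf22 and Tnfrsf26. They include the T cell costimulators OX40 (Tnfrsf4) with its ligand (Tnfsf4), CD30 (Tnfrsf8) with its ligand (Tnfsf8), and the receptors 4-1BB (Tnfrsf9) and GITR (Tnfrsf18). They also include RANK ligand (Tnfsf11) and its receptor RANK (Tnfrsf11a), which drive osteoclast formation. Their levels ran from 4.60 to 8.79 on the wild-type array and from 4.86 to 8.70 on the knockout array. Of the 19, 9 had a positive and 10 a negative difference, with a median of -0.24. A difference of 1 or more was seen in 2, one in each direction. For all genes below both floors the shares were 4.83% upward and 6.31% downward. The 5 undetected ligand genes differed from -0.63, in Tnfsf4, to 2.23, in Tnfsf15, and the 10 undetected TRAF-binding receptor genes from -1.54, in Tnfrsf11a, to 0.82, in Tnfrsf8. Tnfsf15 encodes TL1A, a costimulator of T cells. It read 4.60 on the wild-type array and 6.83 on the knockout array, intensities of 24.3 and 113.7 against floors of 552 and 500.4. The brightest row of Tnfrsf11a read 6.92 and 5.38, whereas the second row differed in the opposite direction, by 0.77. Both genes were singled out after their values were seen, and no fold is given for values under the floors.

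Rows disagreed in most undetected members that have several. Of the 12 members with more than 1 row, 5 had rows of the same sign and 7 had rows of both signs. Tnfrsf19, a receptor known from hair follicle and neural cells, had differences of -0.78, -0.61, -0.50 and 0.38 among its rows. The rows of Tnfrsf13b, which encodes TACI, a receptor of B cells for BAFF and APRIL, differed by -0.51 and 0.44. Those of Tnfrsf18 differed by -0.65 and 0.15. Rows of the same sign were found in Tnfrsf14, the HVEM gene, with -0.24 and -0.80, in Tnfrsf8 with 0.82 and 0.22, and in Tnfrsf22 with 0.80 and 0.21. Each of these lies below both floors.

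**Figure D3:**
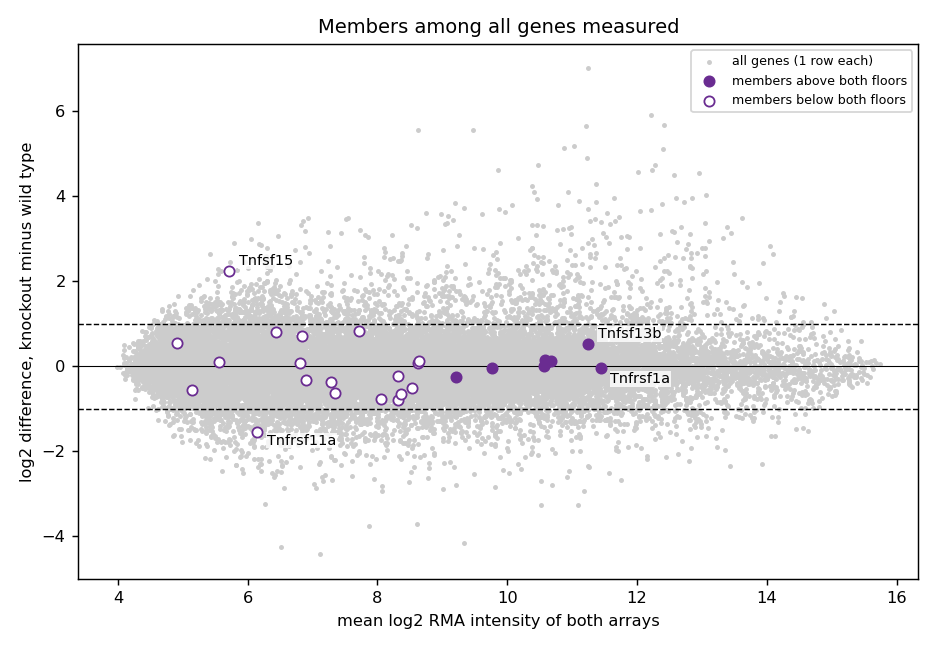
Knockout minus wild type in log2 units against the mean log2 intensity of both arrays, for all 24203 genes (grey) and the 27 members (filled above both floors, open below both); dashed lines mark 2-fold. All 8 filled points lie between the dashed lines, from -0.26 to 0.51, and the 2 points outside them, Tnfsf15 and Tnfrsf11a, are open.

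Ligands and receptors among the 27 members were set side by side as 11 pairs with both partners measured. Superfamily genes outside the symbol rule were not paired, among them the ligand gene Lta, detected on both arrays at 9.94 and 9.83. The detected receptor genes Tnfrsf1a and Tnfrsf1b are therefore in none of the pairs. Tnfrsf21 and Tnfrsf23 are in none either, and Tnfsf10, the TRAIL gene, is outside the members. With none of the 4 detected receptor genes paired, the pair list itself fixed that in 0 pairs both partners were detected. In 5 pairs the ligand alone was detected, and in 6 pairs neither was, so these counts follow the ligands alone. With the median of all rows as the floor, both partners were detected in 3 pairs, Tnfsf13 and Tnfsf13b with Tnfrsf13b, and Tnfsf14 with Tnfrsf14. The 5 pairs join Tnfsf12 to Tnfrsf12a, which encodes Fn14, and Tnfsf13 and Tnfsf13b to Tnfrsf13b and Tnfrsf17. Tnfrsf17 encodes BCMA, a receptor of plasma cells, and read 4.63 and 5.18. The third BAFF receptor gene, Tnfrsf13c, is not among the 27 members; it was detected on both arrays and differed in the opposite direction to Tnfsf13b. B lineage markers were above the floor for 7 of 10 genes on the wild-type array and 4 of 10 on the knockout array. Against 1.82% of all genes measured, 5 of these 10 markers passed 2-fold downward. Their summed intensity was 16701 and 4108, and Cd79a and Igll1 were among those below both floors. The part of B lineage cells in the values of Tnfrsf13c, Tnfrsf13b and Tnfrsf17 was not tested.

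The members' positions were also compared with their detection. On chromosome 4 lie 9 of the 27 members, more than on any other chromosome, and 1 of these, Tnfrsf1b, was detected. Its neighbour Tnfrsf8, placed from 144858878 to 144905050, was not. The adjacent genes Tnfrsf4 (155387803 to 155390698) and Tnfrsf18 (155400450 to 155403000) were both undetected, with differences of 0.12 and -0.65. On chromosome 11, 3 of 4 members were detected, all from the Tnfsf12 and Tnfsf13 locus.

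Superfamily genes with other names were taken from a list of 15, of which 14 were measured and 5 were above the floor on an array. Of these, 1 passed 2-fold upward and 0 downward, against 5.54% and 4.06% of all genes above the floor on either array. The gene past 2-fold was Fas, the death receptor gene. It read 11.18 on the wild-type array and 13.79 on the knockout array, a difference of 2.61, with 2.27 in its other row. Ltb, which encodes lymphotoxin beta, read 9.92 and 10.39, a difference of 0.47. Lta, the lymphotoxin alpha gene, read 9.94 and 9.83, a difference of -0.11. Relt, named after its value was seen, read 9.18 and 9.80, a difference of 0.62, with -0.37 in its other row. Cd40, a costimulatory receptor of B cells and myeloid cells, read 8.65 in the wild type, under the floor, and 9.18 in the knockout, at least 1.05-fold higher. Fasl, the ligand gene of Fas, was below both floors at 5.62 and 8.27. The 14 genes had a median of 0.22.

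Adaptors and proximal signalling genes of these receptors numbered 27 on the list, 25 measured and 21 above the floor on an array. Of them 5 passed 2-fold upward in the knockout and 0 downward, against 5.54% and 4.06% of all genes above the floor on either array. Cyld, a deubiquitinase that restrains NF-kB signalling, read 9.35 and 11.58, a difference of 2.23, although its rows ranged from 0.18 to 2.23. Cflar, the caspase 8 inhibitor FLIP, read 11.91 and 13.70, a difference of 1.79, with rows from 1.01 to 2.68. Birc3, the ubiquitin ligase cIAP2, read 11.90 and 13.14, a difference of 1.24, with rows from 1.24 to 2.09. The other two, named after their values were seen, were the kinase gene Ripk1, with 1.23 (rows from 0.17), and the caspase gene Casp8, with 1.10. Traf4 was detected in the wild type alone and was at least 1.30-fold lower. Traf1, itself an NF-kB target, was below both floors at 8.32 and 8.75, and Map3k14 was not analysed here. The median of the 25 genes was 0.32.

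NF-kB subunits and target genes of TNF signalling were all measured, 25 of 25, with 21 above the floor on an array. Of these, 9 passed 2-fold upward and 0 downward, against 5.54% and 4.06% of all genes above the floor on either array. The mitochondrial superoxide dismutase gene Sod2 read 10.81 and 13.92, a difference of 3.11, with 0.60 in its other row. Il1b differed by 2.88 and Cxcl2 by 2.76, the other row of Cxcl2 differing by -0.01. Tnfaip3, which encodes the NF-kB inhibitor A20, was below both floors at 7.15 and 8.84. Over the 25 genes the median was 0.93. On the same arrays 18 of 19 interferon-stimulated genes measured passed 2-fold upward, with a median of 3.84 and the largest differences measured on both arrays in Cxcl10, with 5.90, Ifit2, with 5.10, and Ifit1, with 4.73. Several NF-kB target genes on the list are known to respond to interferon as well. Reference genes had a median of -0.05, and 1 of 14, the transferrin receptor gene Tfrc, was at least 2-fold lower.

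**Figure D4:**
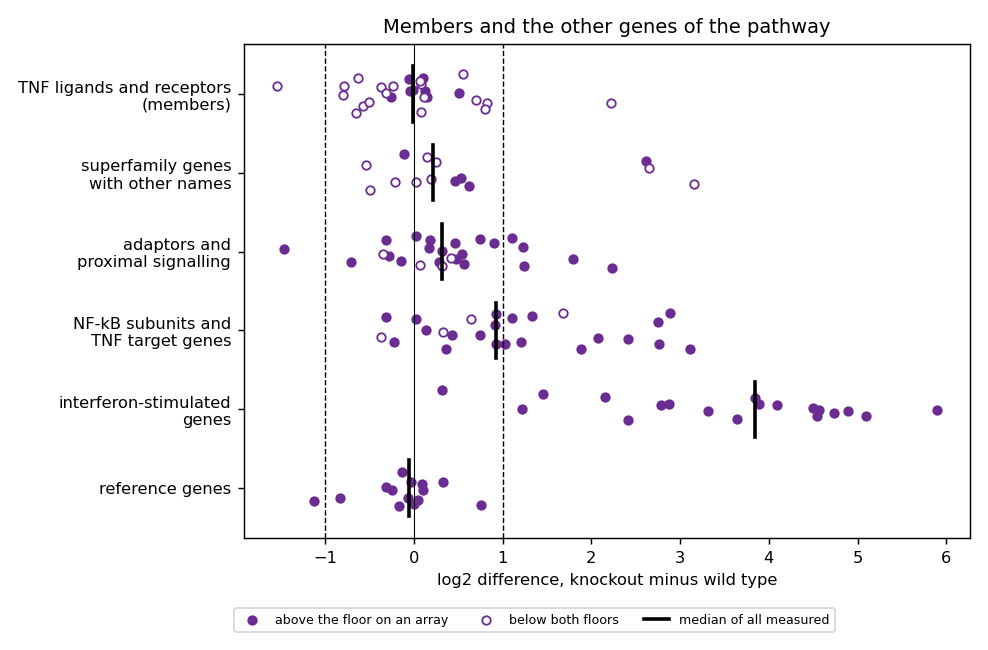
Knockout minus wild type in log2 units for each gene in 6 lists (filled above the floor on an array, open below both floors), with the median of all measured genes of a list as a bar and dashed lines at 2-fold. The members' median lies at -0.01 and that of the reference genes at -0.05, below those of the adaptors (0.32), the NF-kB list (0.93) and the interferon-stimulated genes (3.84).

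The labelled cell type and the other cells a bone marrow sort could hold were read from marker lists. Of 12 genes listed as LT-HSC markers, 6 were above the floor on the wild-type array and 7 on the knockout array. Their summed intensity was 26336 and 28638. Cd34, detected on both arrays, supplied 4847 and 3393 of it. It is on the list although adult mouse LT-HSCs are known for low or absent CD34 protein. Kit and Ly6a were detected on both, and Ly6a supplied 8021 and 10587 of the summed intensity. Procr, Slamf1, Fgd5 and Hoxb5 were among those below both floors. T and NK markers, of the cells in which many undetected costimulatory genes act, had sums of 6175 and 6508, with 0 of 10 past 2-fold. Plasma cell markers summed to 6652 and 12406, of which Jchain supplied 970 and 6929. Their median difference was -0.13, and Irf4 was detected on the wild-type array alone. Dendritic cell markers summed to 1375 and 2015. Erythroid markers summed to 99406.5 and 82423, of which Hba-a1 supplied 43470 and 38240, and Hbb-b1 42878 and 37093. Stromal and endothelial markers summed to 34567 and 29264, of which Pecam1 supplied 18304 and 14855. Megakaryocyte markers summed to 11863 and 3078, of which Ppbp supplied 9692 and 2132. The part of any of these cells in the members' levels was not tested.

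**Figure D5:**
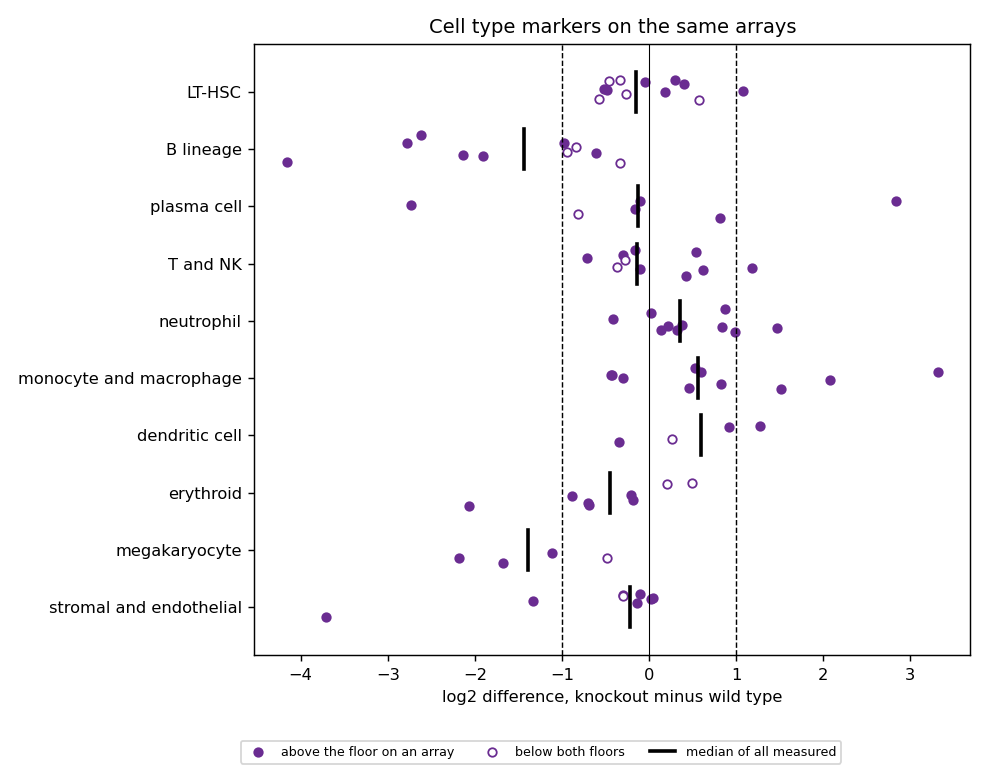
Knockout minus wild type in log2 units for each marker gene in 10 cell type lists (filled above the floor on an array, open below both floors), with the median of all measured genes as a bar and dashed lines at 2-fold. B lineage and megakaryocyte markers have medians of -1.44 and -1.39, and monocyte and macrophage markers a median of 0.56.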

How the data were processed

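Total RNA of sorted cells was copied from oligo dT primers and read in a single colour on NimbleGen expression arrays, per the labels' protocols. Each row holds a deposited intensity, linear and made by the authors with RMA per the submitters' processing notes, which give no version. As generally defined, RMA subtracts background, quantile-normalizes the arrays and summarises probes, so differences are relative to other genes. Per the file headers, 44155 of 44170 transcript rows come from 3 probes, and rows are placed on MM9, with coordinates printed as the files give them. Intensities were converted to log2 without further normalization. Symbols were taken from the files and, for other genes, updated by gene ID from RefSeq (GRCm38.p6), which held 39057 of 41886 named rows. The floor is the 95th percentile of 1025 rows of chemosensory receptor genes. A gene above it on both arrays has a measured fold; on 1 array, the bright value against the other floor is a bound. No test was run. The number of arrays limits the precision. Every member is accounted for; other rows are given where they differ by over 0.5 or lie across 2-fold. Of other lists, the extremes past 2-fold and fixed anchor genes are named. Listed genes without a matched row, Tnfsf9 and Tnfsf18 among them, were not analysed here. Members and lists were chosen with earlier results of these data known. Calls were tested on simulated data with changes set past 2-fold in genes well above the floor. The simulated noise was smaller than the SD of 0.37 between detected rows, so only the calling rule was checked, not its error rate. Recovery of changes near or below the floor was not tried. Analyses used Python 3.11.15, pandas 2.3.3 and statsmodels 0.14.6.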

Additional observations from a re-analysis of the deposited data

How the results depend on the processing

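The count of members at least 2-fold higher was 0, and 0 were lower, under every alternative run except no floor and added members. With no floor, 1 member was higher, Tnfsf15, and 1 lower, Tnfrsf11a. With Tnfsf10, Tnfrsf10b and Tnfrsf13c added, 1 was higher, Tnfsf10, and 1 lower, Tnfrsf13c. The median of detected members ran from -0.03 at a floor set to the median row to 0.12 with the 99th percentile of receptor rows. Floors alone left each member's difference as it was. Averaging rows moved 5 of 27 by more than 0.37, the SD between detected rows, but these lie below both floors, where that SD is 0.62 and Tnfrsf11a alone moved by more. Averaging also turned the sign of Tnfrsf21 and Tnfrsf23, and loess centring turned that of Tnfrsf21. Alternatives for the other lists were chosen after seeing the data. Superfamily genes with other names had 3 higher with no floor and 2 at 1.5-fold, against 1. Adaptors had 3 higher with rows averaged, 2 at 3-fold and 7 at 1.5-fold, against 5. They had 1 lower at the median floor, with no floor and at 1.5-fold, against 0. The NF-kB list had 6 higher at 3-fold and 8 at the 99th percentile floor, against 9. It had 11 at the median floor and at 1.5-fold, and 12 with no floor. Interferon-stimulated genes had 16 higher at 3-fold, against 18. No paired analysis was possible because each group has 1 array. Signal over background limits the 19 members under the floors, for which no fold is given.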
